A study of Gallus gallus with 2 samples.

Results

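Forkhead transcription factors were examined in the wings of 1 chick embryo. They were taken from the rows of the expression table whose symbol was FOX, a letter and a number. Of the 24356 rows, 28 are described here, and forkhead sums and shares are over these 28. Its right wing had been injected with RCAS-GFP-SOCS2, a bird retrovirus that can replicate and that brings in GFP and SOCS2, whose protein dampens cytokine and growth hormone signalling. Its left wing, not injected, was the control. RNA of each forelimb was collected at HH 34 (a Hamburger-Hamilton stage), which was 5 days from infection, and gave 1 library per wing. Expression is in TPM, a measure per transcript length that sums to an equal total in both libraries, so levels can be compared between genes but read depth is unknown. SOCS2 itself was at 254 TPM in the injected and 54.2 TPM in the uninjected wing.

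With 1 library per wing the difference has no replicate check, so no test, error or p-value is given. Injection cannot be told apart from body side. No wing given virus and GFP without SOCS2 was compared, so SOCS2 cannot be told apart from the virus, GFP or the injection itself. Ratios are log2 of injected over uninjected after adding 0.1 TPM to each value, which understates the change of low genes. A ratio was computed for 20 of the 28 forkhead genes, those whose mean over both wings reached 1 TPM, and a gene is called higher or lower where it differed by more than 1.5-fold (0.585 on the log2 scale). The gene nearest the limit among those compared was FOXA2, with a mean of 1.62 TPM, and the nearest among those left out was FOXN1, with a mean of 0.804 TPM. The wings were sequenced as bulk tissue, in which fewer cells of a type and less RNA per cell cannot be told apart. The limb factors TBX5, at 137 TPM in the injected and 113 TPM in the uninjected wing, and PRRX1, at 204 TPM in the injected and 239 TPM in the uninjected wing, were abundant in both.

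Forkhead proteins bind DNA through a winged-helix domain and are grouped by letter. Several act late in signalling pathways. FOXO factors are kept out of the nucleus by AKT when insulin or insulin-like growth factors are present, FOXM1 drives genes of mitosis, and FOXF and FOXC factors pattern mesenchyme, the loose tissue from which skeleton, vessels and connective tissue arise. In the mouse, FOXF genes respond to hedgehog proteins secreted by neighbouring epithelium, and FOXC1 and FOXC2 are needed for parts of the skeleton and for vessels.

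Of the 20 forkhead genes compared, FOXF2 and FOXD1 were lower in the injected wing, FOXI2 was higher and 17 lay within 1.5-fold. Over all 13946 genes compared, 4.79% were lower and 2.23% higher by the same rule. All 3 called forkhead genes had means under 5 TPM, where calls were common, with 15.5% of 2431 genes lower and 7.77% higher. Of 6 forkhead genes in that range, 2 were lower and 1 higher. The 14 forkhead genes with a mean of 5 TPM or more held 0 calls in either direction, against 2.54% lower and 1.06% higher among the 11515 genes at that level. The median log2 ratio of the 20 was −0.04, and that of all genes compared was also −0.04. Ratios were above 0 for 8 of the 20, or 40.0%, and for 40.3% of all genes.

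**Figure D1:**
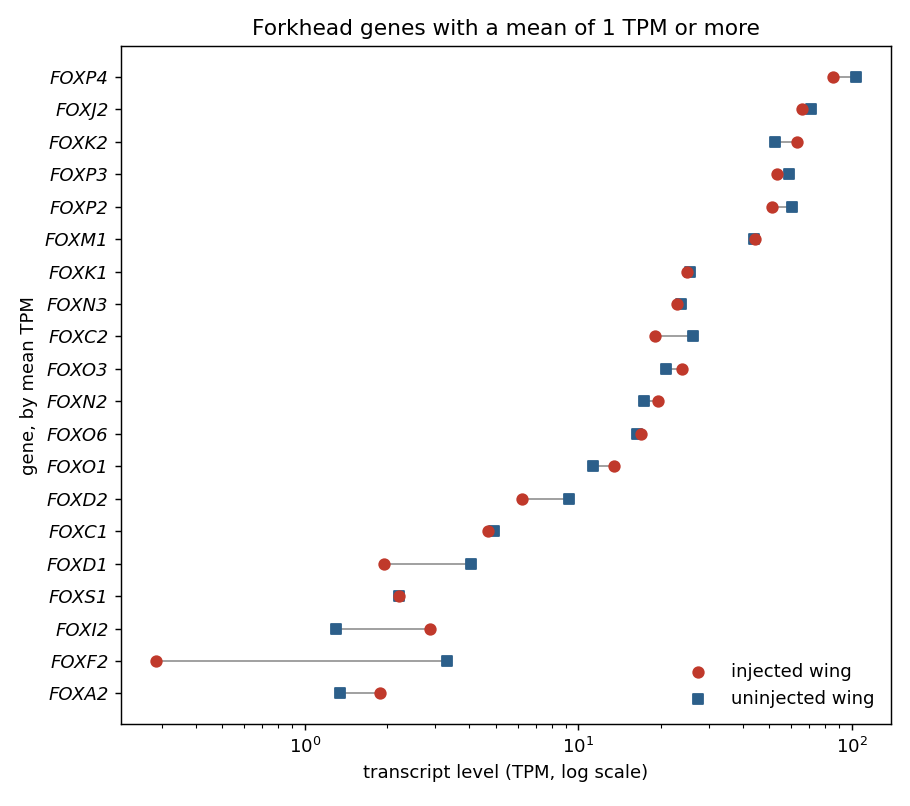
Transcript level in TPM on a log axis for the 20 forkhead genes whose mean reached 1 TPM, ordered by mean, in the injected wing (circles) and the uninjected wing (squares), each symbol 1 library. The symbols lie close together for the abundant genes, while FOXF2 stands at 0.286 TPM in the injected and 3.33 TPM in the uninjected wing.

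FOXF2, a factor of mesenchyme beside epithelium that is needed for the palate in mice, had the largest ratio of the family. It was at 0.286 TPM in the injected wing and 3.33 TPM in the uninjected wing, a log2 ratio of −3.15. Among all 13946 genes compared this was the second lowest ratio. Among genes averaging 1 to 5 TPM, 0.0823% had a ratio that low or lower, which is 2 genes with FOXF2 itself counted. The mean of FOXF2 reached 1 TPM only through the uninjected wing, and genes at 0 in the injected wing were left out. The rank and the share are thus partly set by the filter and are no support for a change. The FOXF2 ratio rests on a low level in both wings, and with 1 TPM added in place of 0.1 TPM it was −1.75. FOXF1, its closest relative, was listed at 0 in the uninjected wing and was at 0.667 TPM in the injected wing, where it exceeded FOXF2. As listed, the pair stood in opposite order in the wings, but both were under 1 TPM in the injected wing. A value of 0 in a table without counts can be a failed estimate, and no ratio is given for FOXF1. With that 0 counted as listed, the summed level of the pair was 0.953 TPM in the injected and 3.33 TPM in the uninjected wing.

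FOXD1 and FOXD2 were both lower in the injected wing, and of these FOXD1 passed 1.5-fold. FOXD1, a factor of kidney stroma and retina, was at 1.96 TPM in the injected wing and 4.04 TPM in the uninjected wing, a log2 ratio of −1.01. Among genes averaging 1 to 5 TPM, 4.98% had a ratio that low or lower. FOXD2 was at 6.25 TPM in the injected wing and 9.25 TPM in the uninjected wing, a log2 ratio of −0.56 that lay just short of the limit. Their summed level was 8.20 TPM in the injected wing and 13.3 TPM in the uninjected wing, and FOXD1 made up 23.8% of it on the injected side and 30.4% on the uninjected side.

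FOXI2 was the only forkhead gene called higher. It belongs to a group whose relatives FOXI1 and FOXI3 act in ion-transporting epithelium and in ectodermal placodes. Its level was 2.88 TPM in the injected wing and 1.30 TPM in the uninjected wing, a log2 ratio of 1.09. Among genes averaging 1 to 5 TPM, 1.73% had a ratio that high or higher. FOXI1 was at 0.0442 TPM in the injected wing and was listed at 0 in the uninjected wing.

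**Figure D2:**
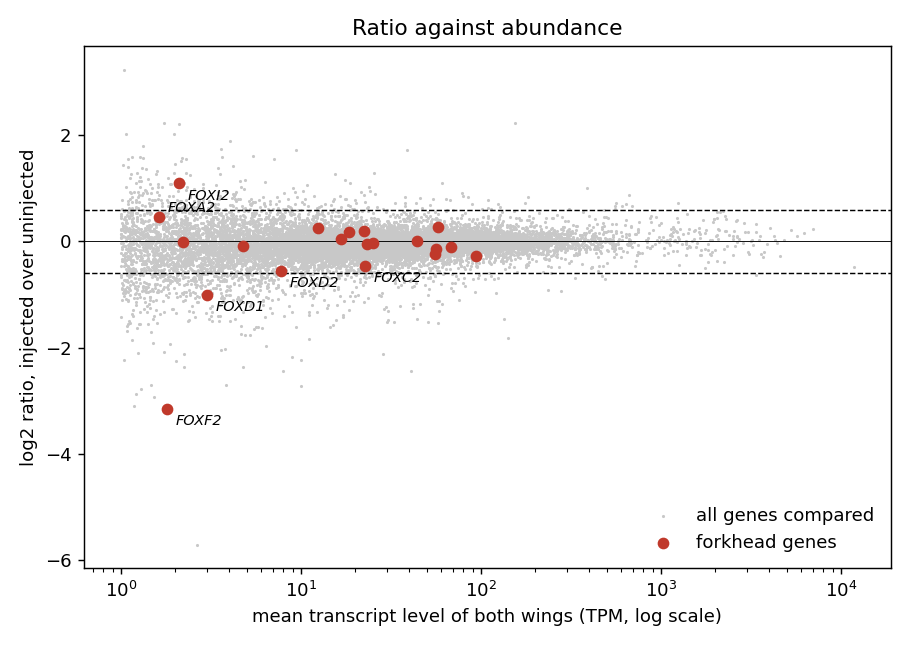
Log2 ratio of injected over uninjected against the mean TPM of both wings on a log axis, for the 13946 genes compared (grey) and 20 forkhead genes (red), with dashed lines at 1.5-fold. FOXF2, at −3.15, lies near the lower edge of the cloud, and FOXD1 and FOXI2 lie beyond the lines where the cloud is wide.

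The FOXC genes differed less. FOXC2, known for its part in lymphatic vessels and the axial skeleton, was at 19.1 TPM in the injected wing and 26.3 TPM in the uninjected wing, a log2 ratio of −0.46. This was the lowest ratio of the 13 forkhead genes with a mean of 10 TPM or more. It lay below the 5th percentile of the 10077 genes at that level, which was −0.39. As the lowest of 13 it was picked by its ratio, so this place is no support for a change. FOXC1 was at 4.67 TPM in the injected and 4.93 TPM in the uninjected wing (log2 ratio −0.08). FOXC2 was the more abundant of the pair, at 4.10 times the level of FOXC1 on the injected side and 5.34 times on the uninjected side.

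Some forkhead genes lie next to each other, and FOXF2 and FOXC1 were the only such neighbours that both had a ratio. In the RefSeq order of protein-coding chicken genes, FOXF2 lies between FOXQ1 and FOXC1, and beyond FOXC1 comes GMDS, an enzyme of fucose synthesis. Next to FOXF2, FOXC1 had a log2 ratio of −0.08 and GMDS, at 87.2 TPM in the injected and 88.4 TPM in the uninjected wing, one of −0.02. On the other side of FOXQ1, the exocyst gene EXOC2 was at 31.0 TPM in the injected and 35.5 TPM in the uninjected wing (log2 ratio −0.19). FOXQ1, FOXL1 and FOXE3 had no row under those symbols and are not analysed here. FOXC2 lies beside FOXL1 and is separated from FOXF1 by MTHFSD, which was at 18.7 TPM in the injected wing and 20.8 TPM in the uninjected wing (−0.15). FOXD2 lies between FOXE3 and TRABD2B. TRABD2B codes for a membrane metalloprotease that cuts WNT proteins and was at 12.7 TPM in the injected and 17.4 TPM in the uninjected wing. Its log2 ratio was −0.46, beside −0.56 for FOXD2. On the other side of FOXE3, CMPK1 was at 53.4 TPM in the injected and 48.3 TPM in the uninjected wing (0.15). Beside FOXD1, BTF3 was at 294 TPM in the injected and 295 TPM in the uninjected wing (−0.01), and TMEM174 was too low for a ratio. The neighbours of most other forkhead genes are not given here, and a shared change of neighbours was not tested.

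FOXP factors, repressors that pair with each other, were the most abundant forkhead group. Their 3 rows summed to 190 TPM in the injected wing and 222 TPM in the uninjected wing. This was 36.0% of the TPM of the 28 forkhead genes on the injected side and 39.7% on the uninjected side. All 3 had ratios below 0 and within 1.5-fold, and 40.3% of all genes compared had ratios above 0. FOXP4, the most abundant single forkhead gene, was at 85.4 TPM in the injected and 103 TPM in the uninjected wing (log2 ratio −0.27). FOXP2, known in mammals for its part in brain and lung, was at 51.0 TPM in the injected wing and 60.3 TPM in the uninjected wing (−0.24). The row named FOXP3 was at 53.2 TPM in the injected wing and 58.7 TPM in the uninjected wing (−0.14). RefSeq lists FOXP3 as an older symbol of chicken FOXP1, and the table has no row named FOXP1, so this row may stand for FOXP1 and not for the regulatory T cell factor of mammals.

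FOXO factors had all 3 ratios above 0 and within 1.5-fold, and 40.3% of all genes compared had ratios above 0. FOXO3 was at 24.0 TPM in the injected wing and 20.9 TPM in the uninjected wing (log2 ratio 0.19). FOXO1 was at 13.5 TPM in the injected wing and 11.3 TPM in the uninjected wing (0.25). FOXO6, which differs from the others in how it leaves the nucleus, was at 17.0 TPM in the injected wing and 16.4 TPM in the uninjected wing (0.05). The 3 summed to 54.5 TPM in the injected wing and 48.6 TPM in the uninjected wing.

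The widely expressed FOXK factors, repressors tied to metabolism and autophagy in the mouse, were unequal. FOXK2 was at 63.1 TPM in the injected wing and 52.2 TPM in the uninjected wing (log2 ratio 0.27), the highest ratio among forkhead genes of 10 TPM or more, and FOXK1 was at 24.9 TPM in the injected wing and 25.6 TPM in the uninjected wing (−0.04). FOXK2 stood at 2.54 times the level of FOXK1 on the injected side and 2.04 times on the uninjected side. FOXM1, the mitotic factor, was at 44.3 TPM in the injected wing and 43.9 TPM in the uninjected wing (0.01).

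The remaining abundant members also lay within 1.5-fold. FOXN3, a checkpoint factor, was at 23.0 TPM in the injected wing and 23.7 TPM in the uninjected wing (log2 ratio −0.04). FOXN2 was at 19.6 TPM in the injected wing and 17.4 TPM in the uninjected wing (0.17). The row named FOXJ2 was at 65.7 TPM in the injected wing and 70.9 TPM in the uninjected wing (−0.11). The RefSeq table used here lists FOXJ3 and not FOXJ2 for the chicken, and no row of the expression table is named FOXJ3, so which FOXJ gene this row stands for is uncertain.

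**Figure D3:**
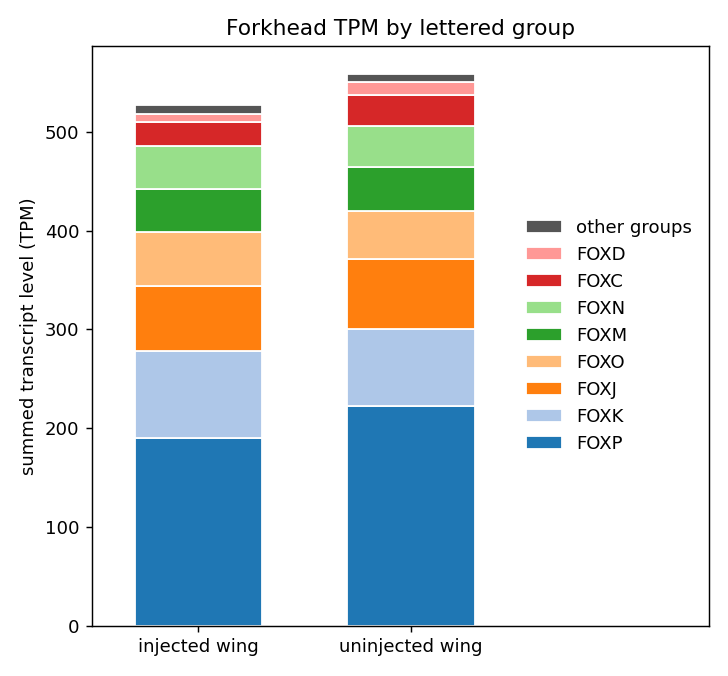
Summed TPM of the forkhead genes in the injected wing (left bar) and the uninjected wing (right bar), split by lettered group. The bars reach 527 TPM in the injected and 559 TPM in the uninjected wing, and the FOXP part holds 190 TPM in the injected and 222 TPM in the uninjected wing.

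The 28 forkhead genes described here together made up 527 TPM in the injected wing and 559 TPM in the uninjected wing. The same 6 genes led in both wings, FOXP4, FOXJ2, FOXK2, FOXP3, FOXP2 and FOXM1, and they held 68.9% of the forkhead total of the injected wing and 69.6% of that of the uninjected wing. The order within the 6 differed, since FOXK2 ranked above the rows FOXP3 and FOXP2 in the injected wing and below both in the uninjected wing, by differences of under 1.5-fold. The 13 genes at 10 TPM or more had log2 ratios from −0.46 to 0.27, with 6 above 0 and 7 below. Their median was −0.04, as was that of all 10077 genes at that level, of which 2.62% lay beyond 1.5-fold.

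Tissue-restricted forkhead genes were low. FOXA2, a factor of notochord, floor plate and gut endoderm, was at 1.89 TPM in the injected wing and 1.35 TPM in the uninjected wing (log2 ratio 0.46). FOXS1, known from neural crest and pericytes, was at 2.21 TPM in the injected wing and 2.22 TPM in the uninjected wing (−0.01). The 8 genes under a mean of 1 TPM reached at most 0.884 TPM in the injected wing and 0.723 TPM in the uninjected wing. The highest was FOXN1, a factor of thymus and skin epithelium, at 0.884 TPM in the injected and 0.723 TPM in the uninjected wing. FOXJ1, the master regulator of motile cilia, was at 0.327 TPM in the injected wing and 0.704 TPM in the uninjected wing, and the ovarian factor FOXL2 was at 0.624 TPM in the injected wing and 0.238 TPM in the uninjected wing. FOXN4 was at 0.161 TPM in the injected wing and 0.0776 TPM in the uninjected wing. FOXA1 was at 0.117 TPM in the injected wing and listed at 0 in the uninjected wing.

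**Figure D4:**
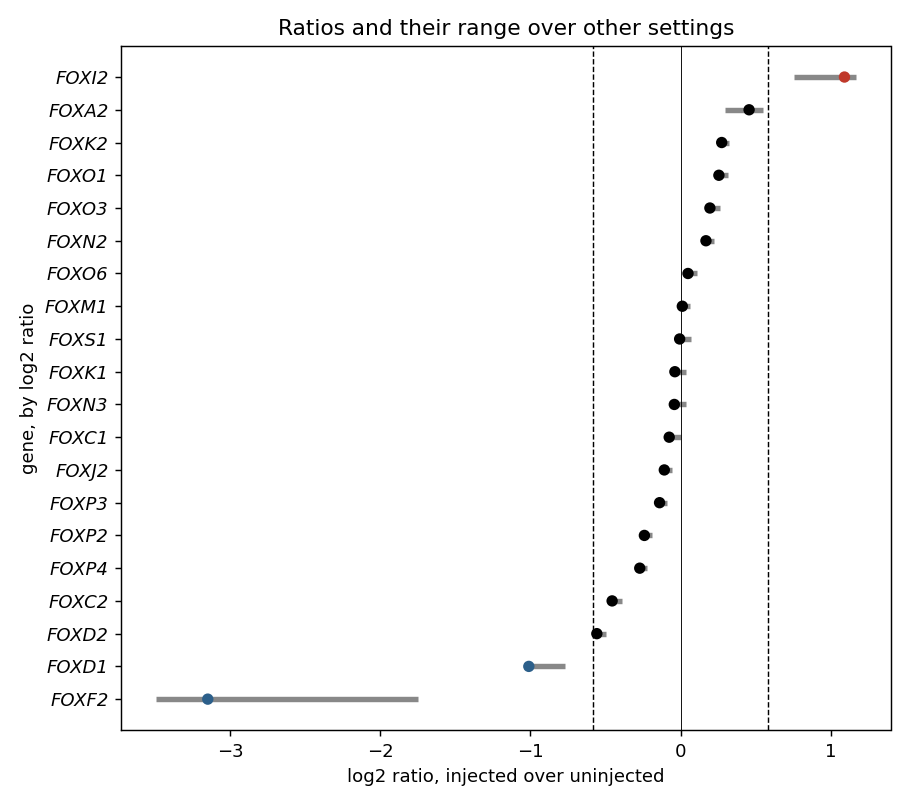
Log2 ratio of injected over uninjected for the 20 forkhead genes (points), with grey bars from the lowest to the highest value under up to 9 other processing settings and dashed lines at 1.5-fold. FOXI2 stays beyond the upper line, and FOXD1 and FOXF2 stay beyond the lower line, with FOXF2 ranging from −3.49 to −1.75.

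Genes known to act with these factors were set beside them. Over all 13946 genes compared, 4.79% were lower and 2.23% higher by the 1.5-fold rule, and 40.3% of ratios were above 0. The upstream regulators of FOXO, which include AKT kinases and 14-3-3 proteins, had 20 of 20 members within 1.5-fold (median log2 ratio 0.05). Their most abundant members were the 14-3-3 genes YWHAE, at 1232 TPM in the injected wing and 1046 TPM in the uninjected wing, and YWHAQ, at 1103 TPM in the injected wing and 1158 TPM in the uninjected wing. Among 22 genes known as FOXO targets in mammals, 21 lay within 1.5-fold and CITED2, a transcriptional co-regulator also induced by other signals, was lower, at 10.8 TPM in the injected and 22.3 TPM in the uninjected wing (−1.03). The median of that list was −0.05, with 15 ratios below 0 and 7 above. All 18 mitotic genes of the FOXM1 type lay within 1.5-fold, with a median of 0.01. CDK1, the mitotic kinase, was at 334 TPM in the injected wing and 344 TPM in the uninjected wing, and the cyclin gene CCNB2 was at 237 TPM in the injected wing and 215 TPM in the uninjected wing.

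Of 15 hedgehog pathway genes, 14 lay within 1.5-fold and the ligand gene SHH was lower, at 2.87 TPM in the injected wing and 6.35 TPM in the uninjected wing (log2 ratio −1.12). SHH had a mean of 4.61 TPM, and 15.5% of genes with a mean of 1 to 5 TPM were lower. The list had a median of −0.14, with 11 ratios below 0 and 4 above. Over all genes compared, the median was −0.04 and 40.3% of ratios were above 0. Genes that hedgehog signalling is known to induce, named after their values were seen, lay within 1.5-fold. GLI1 was at 17.2 TPM in the injected wing and 23.1 TPM in the uninjected wing (−0.42), and PTCH1 was at 14.5 TPM in the injected wing and 17.8 TPM in the uninjected wing (−0.29).

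**Figure D5:**
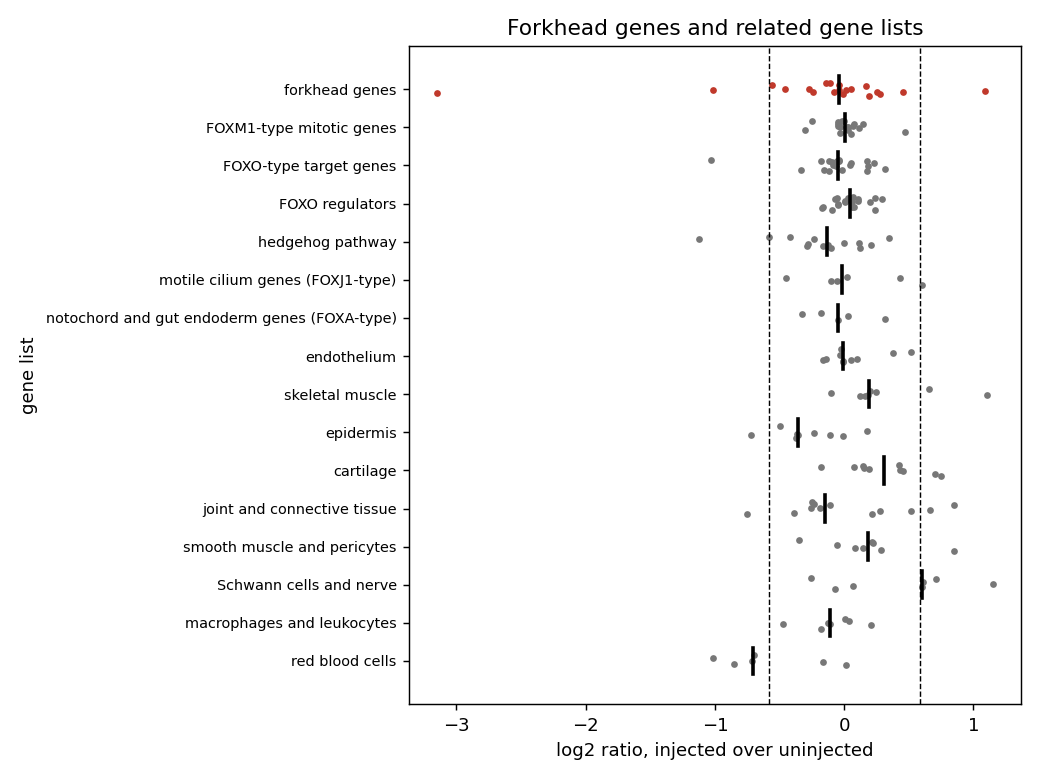
Log2 ratio of injected over uninjected for single genes (points) of the forkhead family and of 15 related lists, with the median of each list as a black bar and dashed lines at 1.5-fold. FOXF2 lies at −3.15, and its mean reached 1 TPM only through the uninjected wing. Medians of the 15 lists run from −0.71 for red blood cells to 0.60 for Schwann cells and nerve.

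Some marker genes of several cell types passed 1.5-fold between the wings. Over all genes compared, 4.79% were lower and 2.23% higher by that rule, and 40.3% of ratios were above 0. RHAG and MATN3, named below, had means of 3.83 and 2.87 TPM. Among genes with a mean of 1 to 5 TPM, 15.5% were lower and 7.77% higher. Red blood cell markers had 4 of 6 lower, RHAG (−1.01), SLC4A1 (−0.85) and HBBR (−0.71) among them, and summed to 210 TPM in the injected wing and 305 TPM in the uninjected wing. Epidermal markers had 8 of 9 ratios below 0 (median −0.36) and summed to 349 TPM in the injected wing and 424 TPM in the uninjected wing, with the splicing regulator ESRP1 lower (−0.72). Schwann cell and nerve markers had 4 of 7 higher, STMN2 (0.71) and SOX10 (0.61) among them, and summed to 174 TPM in the injected wing and 161 TPM in the uninjected wing. The nerve genes TUBB3 (−0.07) and ELAVL4 (−0.26), named after their values were seen, were the 2 of 7 below 0. TUBB3 was the largest part of this sum, at 92.5 TPM in the injected wing and 96.9 TPM in the uninjected wing. Skeletal muscle markers had 2 of 8 higher, MYF5 (1.11) and MYLPF (0.66), and summed to 3891 TPM in the injected wing and 3254 TPM in the uninjected wing. Cartilage markers had 2 of 10 higher, MATN3 (0.75) and EPYC (0.70), and summed to 2505 TPM in the injected wing and 2049 TPM in the uninjected wing. Joint and connective tissue markers had 2 of 12 higher, OSR1 (0.85) and POSTN (0.66), and GDF5 lower (−0.75). Their sum was 5103 TPM in the injected wing and 5717 TPM in the uninjected wing. The collagen gene COL1A1, named after its values were seen, was the largest part of this sum. It was at 1952 TPM in the injected wing and 2551 TPM in the uninjected wing. Smooth muscle and pericyte markers, among which FOXS1 is also known, had ACTG2 higher (0.85) among 8 and summed to 340 TPM in the injected wing and 304 TPM in the uninjected wing.

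Endothelial markers, of interest beside FOXC2, had 10 of 10 within 1.5-fold (median −0.01) and summed to 416 TPM in the injected wing and 423 TPM in the uninjected wing. Over all genes compared, 4.79% were lower and 2.23% higher. The endothelial list had 4 ratios above 0 and 6 below. Its lymphatic genes, named after their values were seen, were LYVE1 (0.52), PROX1 (0.38) and FLT4 (−0.01). CDH5, the endothelial cadherin, was at 141 TPM in the injected wing and 144 TPM in the uninjected wing, and ERG was at 71.4 TPM in the injected wing and 72.0 TPM in the uninjected wing. Macrophage and leukocyte markers had 7 of 7 within 1.5-fold (median −0.11) and summed to 134 TPM in the injected wing and 144 TPM in the uninjected wing. CSF1R, the receptor that marks macrophages, was at 51.2 TPM in the injected wing and 51.0 TPM in the uninjected wing, and the protease gene CTSS was at 29.6 TPM in the injected wing and 33.5 TPM in the uninjected wing. No marker of these 9 cell type lists that had a row was at 0 in both wings. The part of cell make-up in the forkhead ratios was not tested.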

How the data were processed

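The deposited table gives TPM for 24356 rows with Ensembl chicken identifiers, as computed by the authors. HISAT2 2.2.1, StringTie 2.1.7 and the build GRCg6a are named, per the submitters' processing notes, with no role or order. Annotation release and strandedness were not given in the sources used here. A further table was not used: its 2 columns match neither sample's title. The count analysis would need those columns, so depth is unknown. Both wings gave 1 library each.

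Rows of short RNAs (1309) were left out, as were rows at 0 in either wing, for all ratios. The 1.5-fold rule was applied to 13946 genes. Its computation was checked on simulated ratios with equal noise at all levels. That check cannot show how often low genes are called without a true difference. Rows of genes in the RefSeq table (assembly GRCg7b, used for names and gene order alone) were matched by symbol. Of 36 forkhead symbols looked up there, 26 matched, 1 more matched by an older symbol and 9 matched no row. The family and the 15 related lists (204 entries) were chosen with earlier results of these data known. Of the 28 forkhead genes, each with a mean of at least 1 TPM is named. Of each list up to 3 called genes per direction are named, or the 2 most abundant where 0 were called. Some genes that these rules name are not reported here. No sequence was printed, since no sequence table was used here. Other settings were pseudocounts of 1 and 0.01 TPM, a minimum of 5 TPM, 3 scalings and a 2-fold rule. Further settings were no minimum mean, with rows at 0 still left out, and removal of the abundance trend (running median over 501 genes). Computations used Python 3.11.15, pandas 2.3.3, NumPy 2.4.6 and matplotlib 3.10.9.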

Additional observations from a re-analysis of the deposited data

How the results depend on the processing

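FOXF2, FOXD1 and FOXI2 kept their calls under each of the 8 other settings that gave them a value. Their log2 ratios were −3.49 to −1.75, −1.04 to −0.77 and 0.76 to 1.16. No other forkhead gene with a mean of 1 TPM or more gained a call. Some of these settings could hardly move a call, so keeping it is no replicate check. The 3 scalings used log2 shifts of −0.04 to −0.05 between the wings, and having no minimum mean left the ratios as they were. With a minimum mean of 5 TPM these 3 genes were not compared, so 0 forkhead genes were higher and 0 lower, and over all genes 122 were higher and 292 lower. With no minimum mean, rows at 0 in either wing were still left out, and 24 forkhead genes were compared. Of these, 2 were higher and 3 lower, FOXL2 (1.10) and FOXJ1 (−0.91) being the additions. The 3 forkhead genes at 0 in the uninjected wing alone had no ratio, so this setting could not call them higher. Over all genes so compared, 831 were higher and 1298 lower. With a pseudocount of 1 TPM, 186 genes were higher and 432 lower, against 311 higher and 668 lower with 0.1 TPM. Under a 2-fold rule 70 were higher and 207 lower, with FOXI2, FOXD1 and FOXF2 still called. With the abundance trend removed, 433 were higher and 527 lower, which makes the split between directions more even. The median of the forkhead genes moved between −0.04 and 0.04. No paired analysis was possible because the wings of 1 embryo form a single pair. Depth is unknown, so how far counting error limits genes of a few TPM cannot be given.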

Other observations

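A pair of further lists bears on low forkhead genes. Motile cilium genes, known as targets of FOXJ1, had 6 members at 1 TPM or more. CCDC40, an assembly factor of the cilium, was higher at 2.43 TPM in the injected wing and 1.57 TPM in the uninjected wing. Its log2 ratio of 0.60 lay just past the limit of 0.585, and the median of the 6 was −0.02. The mean of CCDC40 was between 1 and 5 TPM, where 7.77% of genes were higher and 15.5% lower by the 1.5-fold rule. Notochord and gut endoderm genes, beside which FOXA2 is known, had 5 members at 1 TPM or more, all within 1.5-fold (median −0.05). GATA4 and CDX2 were among those listed at 0 in both wings. The most abundant were APOA1, at 21.2 TPM in the injected wing and 26.5 TPM in the uninjected wing, and the notochord gene TBXT, at 3.57 TPM in the injected wing and 3.70 TPM in the uninjected wing.

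NPS, which codes for a neuropeptide and lies next to FOXI2 in the RefSeq gene order, was at 1.48 TPM in the injected wing and 0.234 TPM in the uninjected wing. Its mean was under 1 TPM, so it was not among the genes compared, and it was named after its value was seen. On the other side of FOXI2, CLRN3 was listed at 0 in both wings. Beyond CLRN3, PTPRE was at 4.85 TPM in the injected wing and 6.72 TPM in the uninjected wing (log2 ratio −0.46), the opposite direction to FOXI2.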
